A study of Mus musculus with 23 samples.

Results

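Base excision repair genes were examined in the small intestine of mice on a high-fat diet with or without quercetin. The 10 genes were Ogg1, Nthl1, Neil1, Mutyh, Ung, Apex1, Polb, Xrcc1, Lig3 and Parp1. They were taken by their gene name in the scanner files, which gave 13 probes. All 10 genes passed the filter on dim probes, among 21475 genes tested. The tissue was scrapings of the small intestine from 23 adult male C57BL/6J mice. After 3 weeks of adaptation on a normal-fat diet, 11 mice received a high-fat diet with 0.33% quercetin by weight (HF-Q) and 12 mice received the high-fat diet alone (HF), each for 12 weeks. The authors left out a further quercetin-fed mouse that developed an abscess. Quercetin is a plant flavonol. Food was withheld for 2 to 4 hours before dissection, and no group without a high-fat diet was analysed here.

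Each mouse gave 1 Agilent array with 2 colours, Cy5 for its own RNA and Cy3 for a pool made from all the mice. All levels below are therefore log2 ratios to that pool, and 0 is the pool and not an untreated baseline. The arrays lay on 3 slides, with 4 HF-Q and 4 HF mice on slides 1 and 3, and 3 HF-Q and 4 HF mice on slide 2. Between 48.6% and 54.0% of the probes were well above background in Cy5 on HF-Q arrays and between 49.3% and 56.6% on HF arrays. A protocol field names liver, whereas all other labels name small intestine. All 10 enterocyte markers were well above background on all 23 arrays, and 4 of 8 hepatocyte markers passed the filter on dim probes. Scrapings are bulk tissue, in which fewer cells of a type and less RNA per cell cannot be told apart.

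Base excision repair removes small damaged bases from DNA, such as oxidised guanine or uracil. A DNA glycosylase cuts out the damaged base, an endonuclease opens the strand at the empty site, a polymerase fills the gap and a ligase seals it, with scaffold and nick-sensing proteins holding the steps together. The intestinal epithelium renews itself from dividing cells of the crypts, and the long-patch form of the pathway uses the enzymes that also copy DNA before cell division.

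The probes of Apex1 and Parp1 are shown because these 2 genes moved most closely together over the mice. They are 60 bases long and are given 5′ to 3′ as in the scanner files, with positions on mouse build mm9. The Apex1 probe lies on chromosome 14 from 51546483 to 51546542. The ends of the Parp1 probe lie 299 bases apart on chromosome 1, from 182530341 to 182530639. Exon and UTR positions were not analysed here.
Apex1 probe: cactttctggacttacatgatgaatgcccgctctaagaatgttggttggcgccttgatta
Parp1 probe: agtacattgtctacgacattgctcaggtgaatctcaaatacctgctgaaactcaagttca

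The only Ung probe on the array (chromosome 5, 114588731 to 114588790) is shown because 34 of its 60 bases are a repeat of GT, marked in capitals. Such a repeat is common in mammalian genomes. Values of the Ung probe are set beside those of other probes with this repeat further on.
Ung probe, first 30 bases: tatcctttagagttagagatttcaaaGTGT
Ung probe, last 30 bases: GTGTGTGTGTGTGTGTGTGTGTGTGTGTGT

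Neil1 has 2 probes that did not move together, and their last 30 bases are shown because the choice between them decides several results. The brighter probe over all arrays, which stands for the gene, lies on chromosome 9 from 56990628 to 56990687, and the dimmer one from 56991288 to 56991347. The longest run of GT or AC in the brighter probe is 4 bases.
Neil1 brighter probe: tcaacattttttaaatccaaagtgaaaacc
Neil1 dimmer probe: accaggaaacccctacagctcctgagaaag

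The comparison of HF-Q with HF asks whether dietary quercetin changes the transcript levels of this pathway. No base excision repair gene passed the test. Of the 10 genes, 0 had an adjusted p under 0.05 in limma (0% of all genes tested) and 0 had an unadjusted p under 0.05 (4.53% of all genes tested, or 972 genes). A permutation of the diet labels for each gene gave 0 of 10 under 0.05 as well. Point estimates were higher in HF-Q for 8 genes and lower for 2, beside 48.1% of all genes higher. The median log2 fold change of HF-Q over HF was 0.020 for the 10 genes and -0.0038 for all genes tested. The 95% intervals of all 10 genes lay within 1.5-fold in either direction, and those of 7 lay within 1.2-fold. For Ung the interval describes its only probe, the one with the GT repeat, and not the transcript as such.

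**Figure D1:**
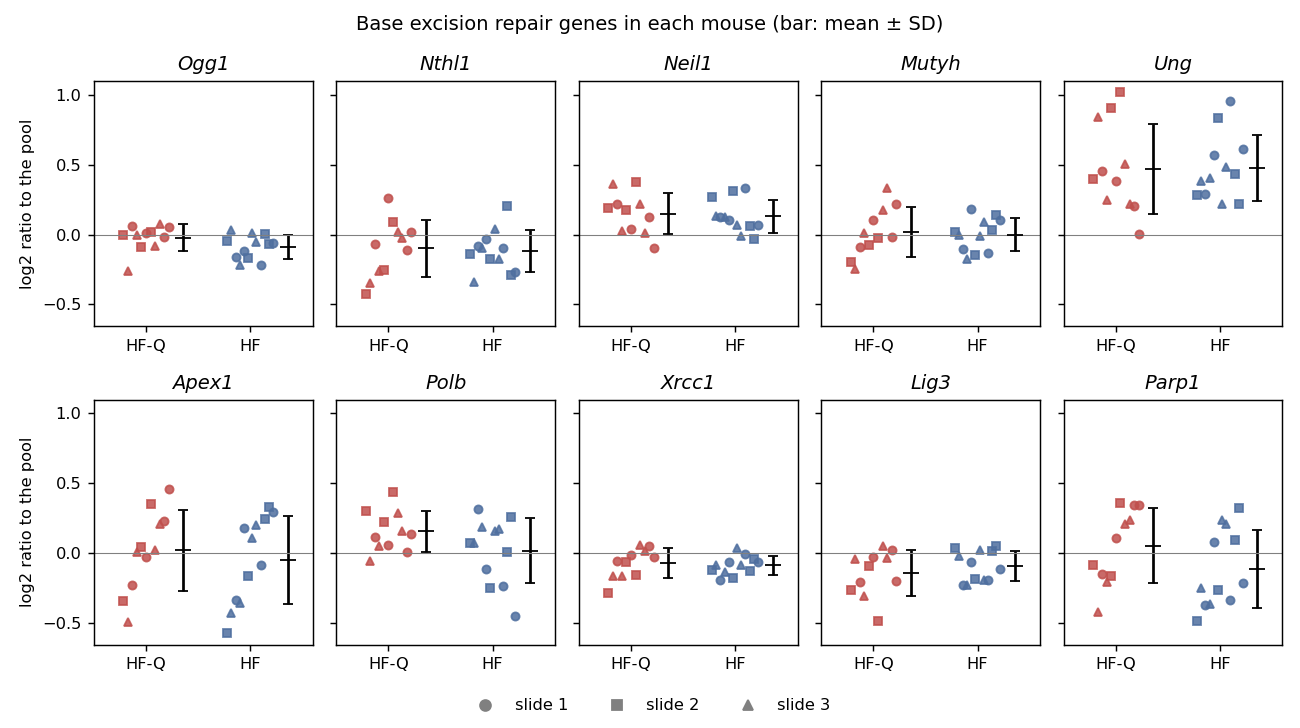
Log2 ratio to the pool (vertical axis) of each base excision repair gene in each of the 11 HF-Q mice (left in each panel) and 12 HF mice (right), with a symbol for the slide; mice stand in the order of their numbers in the labels, and the bar gives the mean ± SD of the diet. The diets overlap for all 10 genes, and Ung, Apex1 and Parp1 spread most over the mice.

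The glycosylases come first in the pathway. Ogg1, which removes 8-oxoguanine (probe on chromosome 6, 113284105 to 113284164), had a lowest log2 ratio of -0.26, a median of -0.0027 and a highest of 0.076 in HF-Q mice, against -0.22, -0.066 and 0.030 in HF mice. The ranges overlapped, with 7 of 11 HF-Q mice inside the HF range and 8 of 11 above the HF median. Its log2 fold change was 0.068 ± 0.043 SE, with a 95% interval of -0.021 to 0.16 and an unadjusted p of 0.129 in limma (permutation p = 0.0921). Within slides 1, 2 and 3 the difference was 0.17, 0.045 and -0.012.

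Nthl1, which removes oxidised pyrimidines (chromosome 17, 24775385 to 24775444), ran over -0.42, -0.065 and 0.26 (lowest, median, highest) in HF-Q mice and over -0.34, -0.12 and 0.20 in HF mice. Its probe was dim, being well above background on 10 of 11 HF-Q and 9 of 12 HF arrays. The difference of 0.022 ± 0.073 SE was smaller than its error, and within the slides it was 0.15, -0.097 and -0.0093. It was 0.15 with the scanner software's log ratios, 0.094 with Cy5 signals alone and 0.064 in the authors' deposited table. Over the mice the Nthl1 values had r = 0.53 with those of the authors' table, the lowest of the 10 genes.

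Neil1, a glycosylase for oxidised pyrimidines and ring-opened purines, ran over -0.094, 0.17 and 0.38 in HF-Q mice and over -0.029, 0.11 and 0.33 in HF mice. Of the HF-Q mice, 8 of 11 lay inside the HF range, and the log2 fold change was 0.019 ± 0.057 SE. By the dimmer probe it was 0.035 ± 0.057 SE. Within the slides the brighter probe gave -0.086, 0.094 and 0.074.

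Mutyh takes adenine out of a pair with 8-oxoguanine. Its brighter probe lies on chromosome 4 from 116491926 to 116491985. The log2 ratios ran over -0.25, -0.020 and 0.34 in HF-Q mice and over -0.18, 0.0042 and 0.19 in HF mice, and the difference was 0.018 ± 0.063 SE. The dimmer probe of the gene, above background on 11 of 11 HF-Q and 9 of 12 HF arrays, gave 0.048 ± 0.071 SE. The spread in HF-Q mice (SD 0.18) and in HF mice (SD 0.12) exceeded both differences, and within the slides the brighter probe gave 0.038, -0.11 and 0.094.

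The Ung probe, named for the uracil-DNA glycosylase, ran over 0.0058, 0.40 and 1.02 in HF-Q mice and over 0.21, 0.42 and 0.96 in HF mice. The means were 0.47 ± 0.32 in HF-Q mice (SD, n = 11) and 0.47 ± 0.24 in HF mice (SD, n = 12), and the log2 fold change was -0.0033 ± 0.11 SE. Opposite differences of -0.35 and 0.33 within slides 1 and 2 lay behind that value, with 0.081 within slide 3. These values describe the probe, since 34 of its bases are the GT repeat.

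Apex1, the main endonuclease that opens the strand at a site without a base, had log2 ratios from -0.50 over a median of 0.021 to 0.46 in HF-Q mice, against -0.57, 0.012 and 0.33 in HF mice. It had a wide spread among mice and a small difference between diets. The range over all mice was 2.05-fold and the within-diet SD of 0.30 exceeded that of 89.6% of the genes tested, whereas the log2 fold change was 0.070 ± 0.12 SE with a 95% interval of -0.18 to 0.32. Within the slides the difference was 0.097, 0.059 and 0.053.

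Polb, the polymerase that fills the gap of a single base (chromosome 8, 23747560 to 23747619), ran over -0.058, 0.14 and 0.44 in HF-Q mice and over -0.45, 0.071 and 0.31 in HF mice. It had the smallest unadjusted p of the 10 genes in limma (0.0909, adjusted p = 0.951; permutation p = 0.103), with a log2 fold change of 0.14 ± 0.079 SE and a 95% interval of -0.024 to 0.30. The groups overlapped, with 10 of 11 HF-Q mice inside the HF range, and the lowest values belonged to HF mice. On slides 1 and 2 the difference was 0.20 and 0.30, and on slide 3 it was -0.038.

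Xrcc1, the scaffold that binds polymerase and ligase, and Lig3, the DNA ligase that partners it, follow at the sealing step. The Xrcc1 probe lies on chromosome 7 from 25358268 to 25358327, and the brighter Lig3 probe on chromosome 11 from 82617710 to 82617769. Xrcc1 ran over -0.29, -0.054 and 0.060 in HF-Q mice and over -0.19, -0.084 and 0.038 in HF mice, with a log2 fold change of 0.016 ± 0.042 SE and values of 0.071, -0.053 and 0.0049 within the slides. Its within-diet SD was 0.089, above that of only 3.77% of the genes tested; Ogg1 stood at 4.57%. Lig3 ran over -0.48, -0.092 and 0.048 in HF-Q mice and over -0.23, -0.091 and 0.049 in HF mice, with a log2 fold change of -0.052 ± 0.059 SE. The dimmer Lig3 probe gave 0.0037 ± 0.048 SE, and within the slides the brighter probe gave 0.049, -0.26 and 0.020.

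Parp1, the enzyme that binds broken strands and marks them with poly(ADP-ribose), had the largest point estimate of the 10 genes. It ran over -0.42, 0.11 and 0.36 in HF-Q mice and over -0.49, -0.23 and 0.32 in HF mice. The means were 0.052 ± 0.27 in HF-Q mice (SD, n = 11) and -0.11 ± 0.28 in HF mice (SD, n = 12). Of the HF-Q mice, 10 of 11 lay above the HF median, but 8 of 11 lay inside the HF range. The log2 fold change was 0.16 ± 0.11 SE, with a 95% interval of -0.060 to 0.39, an unadjusted p of 0.144 and an adjusted p of 0.951 in limma (permutation p = 0.165). Within slides 1, 2 and 3 the difference was 0.37, 0.12 and -0.0048 and was largest on slide 1. The cell cycle score described further on, which moved with Parp1, averaged 0.052 ± 0.27 in HF-Q mice and -0.017 ± 0.32 in HF mice (SD), and its part in this difference was not tested. With scores of pancreatic acinar and smooth muscle markers as terms in limma, the log2 fold change of Parp1 was 0.27 (unadjusted p = 0.00157, adjusted p = 0.250). The acinar score averaged -1.44 ± 1.52 in HF-Q mice and -0.88 ± 1.92 in HF mice, and the smooth muscle score -0.30 ± 0.77 in HF-Q mice and -0.048 ± 0.65 in HF mice (SD). In that fit 3 of the 10 genes had an unadjusted p under 0.05, as did 2670 genes in all. The HF-Q mouse numbered 7 had the highest HF-Q value of Parp1, Polb, Neil1 and Ung and the lowest of Lig3.

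**Figure D2:**
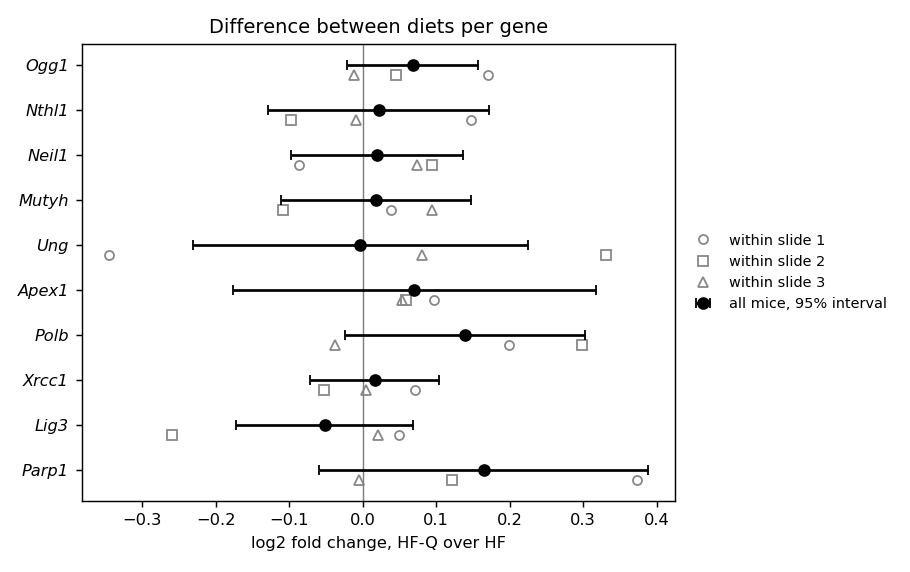
Log2 fold change of HF-Q over HF per gene (horizontal axis); the filled point and bar give the estimate over all 23 mice and its 95% interval in limma, and open symbols give the difference within each slide. All 10 intervals include 0, and the slides disagree in sign for every gene except Apex1.

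The rest of the pathway was read from a list of 41 further genes, of which 40 were tested; Adprs was not matched by name. At adjusted p under 0.05, 0 of 40 passed in limma. Point estimates were higher in HF-Q for 24 and lower for 16 (48.1% of all genes higher), with a median log2 fold change of 0.020. Of the 40 genes, 3 had an unadjusted p under 0.05 in limma, beside 4.53% of all genes tested. Those were Parp2 (0.15 ± 0.059 SE, p = 0.0189) and Parp3 (0.12 ± 0.057 SE, p = 0.0397), relatives of Parp1 that also sense strand breaks, and Nudt5 (0.28 ± 0.13 SE, p = 0.0425), a hydrolase of ADP-ribose and of oxidised nucleotides. Each had an adjusted p of 0.951 in limma.

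By step of the pathway, the other glycosylases were 3 higher and 3 lower, from Neil2 at -0.13 ± 0.090 SE to Smug1, a further remover of uracil, at 0.060 ± 0.067 SE. Genes that clean up blocked strand ends were 1 higher and 5 lower, among them Tdp2 (-0.096 ± 0.054 SE), which frees ends held by a topoisomerase, and Aptx (-0.083 ± 0.057 SE). Of the 16 long-patch genes, 14 were higher and 2 lower (48.1% of all genes higher), with a median of 0.032 and a highest value for the polymerase subunit Pold2 (0.15 ± 0.079 SE). Fen1, the flap endonuclease of that branch (0.054 ± 0.13 SE), Lig1, its ligase (0.023 ± 0.11 SE), and the sliding clamp Pcna (0.0054 ± 0.052 SE) were near 0. Parg, which removes poly(ADP-ribose), was at -0.011 ± 0.048 SE. Hmgb1, a chromatin protein that can aid the pathway, had the lowest value of the list, -0.17 ± 0.16 SE. In the cell cycle list, 23 of 24 genes had a higher point estimate in HF-Q and 0 passed the test. Its score had a median r of 0.81 with the long-patch genes. Genes that move together over the same mice are not separate observations, so neither 14 of 16 nor 23 of 24 is a test. The score differed between diets by 0.069, beside an SD of 0.27 in HF-Q and 0.32 in HF mice. Its part in the long-patch values was not tested. Nucleotide pool enzymes were 3 higher and 2 lower, with Nudt1, which degrades oxidised purine nucleotides, at 0.050 ± 0.058 SE. None of these differences passed the test.

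Over the mice, some of the 10 genes moved together. Of the 45 pairs, 9 had a Pearson r of 0.5 or more (20%), beside 5.88% of all gene pairs, and 3 had an r of -0.5 or less, beside 4.87%. The same number of pairs, 9 positive and 3 negative, had a permutation p under 0.05 after Benjamini-Hochberg adjustment over the 45 pairs. Pairs among Apex1, Parp1, Mutyh and Xrcc1 made up 5 of the 9 positive ones. Polb and Nthl1 took part in none of the 12.

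The endonuclease Apex1 and the strand-break sensor Parp1 were the closest pair, with r = 0.82 and Spearman's rho = 0.81. Each had a permutation p of 1e-05, the smallest that 100000 resamples can give, and an adjusted p of 0.00045. Without the 2 mice farthest from the median of Apex1, r was 0.77. It was 0.70, 0.90 and 0.90 within the slides, 0.83 after each diet was centred on its mean and 0.87 in the authors' deposited table. The lowest Apex1 and Parp1 values of each diet belonged to the same mice, number 2 in HF-Q and number 1 in HF.

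Mutyh followed this pair, with r = 0.66 to Apex1 (rho = 0.62; adjusted permutation p = 0.00889 and 0.0225) and r = 0.63 to Parp1 (rho = 0.52; adjusted permutation p = 0.0113 and 0.0503). Within the slides these were 0.79, 0.50 and 0.79 for Apex1, and 0.63, 0.44 and 0.81 for Parp1. By the dimmer Mutyh probe they were 0.23 and 0.23. The 2 Mutyh probes correlated with each other at r = 0.45, and the relation was not seen at that size by the dimmer probe.

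Other positive pairs were Mutyh with Xrcc1 (r = 0.59), Ogg1 with Parp1 (r = 0.57), Xrcc1 with Lig3 (r = 0.56), Ogg1 with Mutyh (r = 0.54) and Xrcc1 with Parp1 (r = 0.51). Their adjusted permutation p lay between 0.0236 and 0.0498 for r, and rho was 0.57, 0.56, 0.56, 0.42 and 0.54 in the same order. The adjusted permutation p of rho was under 0.05 for all but Ogg1 with Mutyh, where it was 0.129. In the authors' deposited table, r was 0.29, 0.55, 0.54, 0.36 and 0.36, and with Cy5 signals alone it was 0.59, 0.28, 0.29, 0.14 and 0.46. Without the 2 mice farthest from the median of the first gene, r was 0.53, 0.46, 0.50, 0.38 and 0.53. Within slides 1, 2 and 3, r was 0.17, 0.80 and 0.70 for Mutyh with Xrcc1, 0.64, 0.46 and 0.62 for Ogg1 with Parp1, 0.40, 0.18 and 0.77 for Ogg1 with Mutyh, and 0.64, 0.19 and 0.85 for Xrcc1 with Parp1. These values spread widely over the slides, each of which holds 7 or 8 mice. The cause of that spread was not tested. The scaffold and its ligase partner, Xrcc1 and Lig3, correlated at 0.61, 0.57 and 0.73 within the slides, but at 0.33 by the dimmer Lig3 probe. By the dimmer Mutyh probe, Mutyh with Xrcc1 had r = 0.23 and Ogg1 with Mutyh had r = 0.27.

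**Figure D3:**
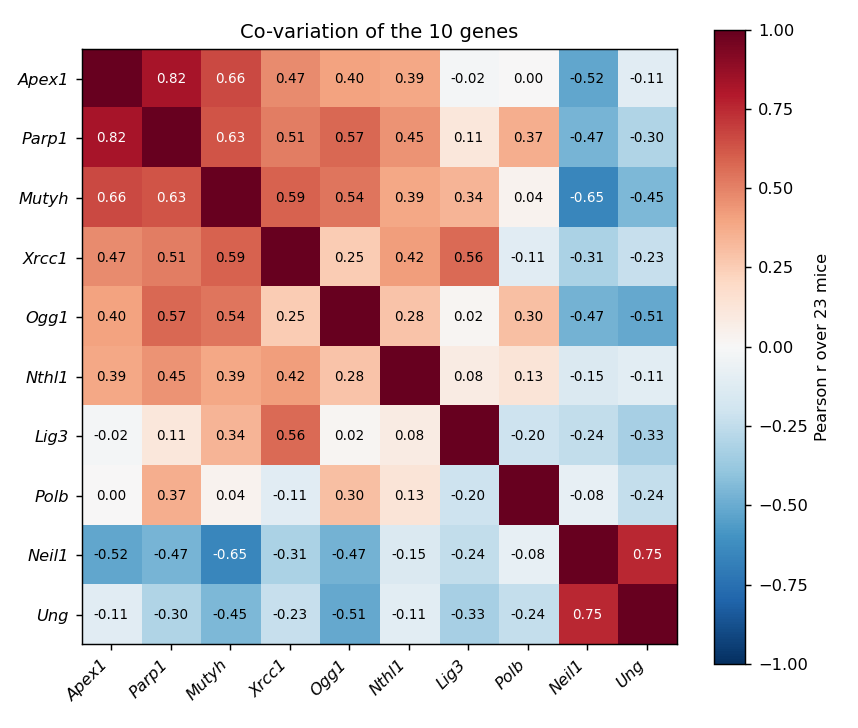
Pearson r over 23 mice for each of the 45 pairs of genes, from -1 (blue) to 1 (red), with its value in each cell. Apex1 with Parp1 is highest at 0.82, a block of positive values joins Apex1, Parp1, Mutyh and Xrcc1, and Neil1 and Ung are positive with each other at 0.75 and negative with every other gene.

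By its brighter probe, Neil1 had a negative r with every other member except Ung, from -0.082 with Polb to -0.65 with Mutyh. Its r was -0.65 with Mutyh (rho = -0.69, adjusted permutation p = 0.00889), -0.52 with Apex1 (rho = -0.55, adjusted permutation p = 0.0498) and 0.75 with Ung (rho = 0.63, adjusted permutation p = 0.00112). Without the 2 mice farthest from the median of Neil1 these were -0.64, -0.66 and 0.65. Within the slides they were -0.84, -0.55 and -0.58 for Mutyh, -0.64, -0.34 and -0.73 for Apex1, and 0.77, 0.66 and 0.83 for Ung. By its dimmer probe the values were 0.031 with Mutyh (dimmer probe of both genes), -0.19 with Apex1 and -0.40 with Ung. The 2 Neil1 probes had r = -0.24 with each other. Ogg1 with Ung was the third negative pair, at r = -0.51 (rho = -0.47, adjusted permutation p = 0.0498 for r and 0.0939 for rho), -0.31 without the 2 farthest mice, and -0.66, -0.19 and -0.80 within the slides.

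The Ung probe moved with other probes that hold the GT repeat. On the array, 50 other probes above background hold a run of GT of at least 20 bases, and their r with the Ung probe over the mice had a median of 0.98. In 49 of 50 it was 0.9 or more, the exception being the probe of Igsf9 at 0.18, whereas 1.01% of all genes tested reached 0.9. The 11 probes that end in the same 30 bases as the Ung probe had r from 0.98 to 0.99. Probes with the complementary AC repeat, 23 in number, had a median r of 0.88.

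Against the mean of the 50 GT repeat probes the Ung probe had r = 0.99 and rho = 0.97, each with a permutation p of 1e-05. Without the 2 farthest mice r was 0.99, and within the slides it was at least 0.99. It was 0.96 with Cy5 signals alone and 0.99 in the authors' deposited table, over the 48 of these probes that stand for a gene. The mean of the GT repeat probes differed between diets by 0.0043 overall and by -0.28, 0.27 and 0.087 within the slides, next to -0.0033 overall and -0.35, 0.33 and 0.081 for the Ung probe. How much of the probe's signal came from the Ung transcript was not tested. The 3 genes nearest to Ung, Hemgn, Wdr89 and Itsn1, all at r = 0.99, were themselves read by GT repeat probes.

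Neil1's brighter probe holds no such repeat, yet it had r = 0.76 with the mean of the GT repeat probes, against -0.42 for its dimmer probe. With Cy5 signals alone, which leave out the Cy3 pool, the brighter probe had r = 0.042 with that mean and -0.073 with the Ung probe. Without Ung, 8 of 36 pairs had an r of 0.5 or more.

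The members that moved together were set beside scores of 15 gene lists for cell types and the cell cycle, each the mean log2 ratio of the list's measured genes in a mouse. Of the 150 relations, 28 had an adjusted permutation p under 0.05, 24 of them positive. By size, 25 of the 150 had an r of 0.5 or more (16.7%), beside 9.68% over all genes and lists, and 6 an r of -0.5 or less (4%), beside 7.22%. Of the 28 relations with an adjusted permutation p under 0.05, Apex1 held 9, Parp1 7, Mutyh and Xrcc1 5 each, and Neil1 and Lig3 1 each.

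The cell cycle score covered 24 of 25 listed genes, none of them a member, and ran from -0.47 over a median of 0.19 to 0.27 in HF-Q mice, against -0.55, 0.065 and 0.43 in HF mice. Over all genes, 18.2% had an r of 0.5 or more with it and 13.2% an r of -0.5 or less. Apex1 correlated with it at r = 0.93 (rho = 0.87; permutation p = 1e-05 each, adjusted p = 0.000375), and at 0.91, 0.91 and 0.97 within the slides. Parp1 followed at 0.75 (rho = 0.62, adjusted p = 0.00167), Mutyh at 0.68 (rho = 0.70, adjusted p = 0.00358) and Xrcc1 at 0.54 (rho = 0.49, adjusted p = 0.0409 for r and 0.0974 for rho). Within the slides r was 0.67, 0.69 and 0.89 for Parp1, 0.82, 0.45 and 0.82 for Mutyh, and 0.59, 0.53 and 0.64 for Xrcc1.

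Without the 2 mice farthest from the member's median, r with the cell cycle score was 0.89 for Apex1, 0.77 for Parp1, 0.65 for Mutyh and 0.44 for Xrcc1. Neil1 was opposite at -0.57 by its brighter probe and -0.27 by its dimmer one. Nthl1 (0.42), Ogg1 (0.41), Lig3 (0.17), Polb (-0.062) and Ung (-0.11) did not pass. By its dimmer probe Mutyh had an r of 0.28. Once the score was regressed out, Apex1 with Parp1 had r = 0.51, Mutyh with Apex1 0.093 and Mutyh with Parp1 0.25, while Xrcc1 with Lig3 kept 0.57. The brighter Neil1 probe then had r = 0.012 with Apex1, -0.44 with Mutyh and 0.85 with Ung.

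With the mice taken on either side of a score of 0, 9 lay between -0.55 and -0.048 and 14 between 0.12 and 0.43. Of the 9 low mice 3 were HF-Q and 6 were HF, and of the 14 high mice 8 were HF-Q and 6 were HF. Apex1 had an r of 0.94 with the score within the 9 low mice and 0.29 within the 14 high mice, and Parp1 had 0.46 and -0.18. The split narrows the range of the score on each side, most of all in the high mice. Apex1 with Parp1 was 0.45 within the low and 0.48 within the high mice, and Mutyh with Apex1 was -0.24 and 0.24.

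Apex1 and Parp1 also correlated with markers of the crypt. With markers of crypt base stem cells Apex1 had r = 0.90 and Parp1 0.72, with Paneth cell markers 0.88 and 0.74, and with the 10 enterocyte markers of the villus -0.85 and -0.71, with adjusted permutation p of 0.000375 for each Apex1 relation and between 0.000857 and 0.00245 for Parp1. Over all genes, 16.1% had an r of -0.5 or less with the enterocyte score and 12.7% an r of 0.5 or more. Within the slides the enterocyte relation was -0.93, -0.91 and -0.88 for Apex1, and -0.52, -0.93 and -0.72 for Parp1. Apex1 correlated as well with markers of smooth muscle (0.77), macrophages and dendritic cells (0.75), fibroblasts (0.67), and negatively with adipocyte markers (-0.65). Its r of 0.56 with B and plasma cell markers fell to 0.36 without the 2 farthest mice, and the rank correlation did not pass (rho = 0.34, adjusted permutation p = 0.354). Lig3 passed with goblet cell markers alone (r = 0.60, adjusted permutation p = 0.0195; 0.50 without the 2 farthest mice; 0.36, 0.58 and 0.72 within the slides). Xrcc1 had its highest r with smooth muscle markers (0.71, adjusted permutation p = 0.00263) and Mutyh with those of crypt base stem cells (0.71, adjusted permutation p = 0.00225). These scores hold 10 measured genes for enterocytes, 7 for smooth muscle, 6 for crypt base stem cells, 6 for goblet cells and 5 for Paneth cells. The adipocyte score holds only 3 of 5 listed genes, 2 of them well above background on all arrays. An r of 0.5 or more was found over all genes for 18.1% with the Paneth score, 18.5% with the crypt base stem score and 16.5% with smooth muscle. It was found for 15.2% with fibroblasts, 14.8% with macrophages and dendritic cells, 11.5% with B and plasma cells and 3.19% with goblet cells. With the adipocyte score, 8.65% of all genes had an r of -0.5 or less. The smooth muscle score ran from -1.57 to 0.91 in HF-Q mice and from -0.86 to 1.22 in HF mice. The part of cell composition in the shared movement of these genes was not tested.

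The number that each mouse carries in the labels moved with the same genes in both diets. Apex1 averaged 0.25 in the 5 HF-Q mice and 0.18 in the 6 HF mice numbered 7 to 12, and -0.17 in the 6 HF-Q mice and -0.28 in the 6 HF mice numbered 1 to 6. Over the mice its r with the number was 0.87 (rho = 0.87, adjusted permutation p = 0.0001 over the 10 genes), and it was 0.81, 0.89 and 0.91 within the slides. Parp1 (0.64, adjusted permutation p = 0.00725), Xrcc1 (0.59, 0.0102) and Mutyh (0.57, 0.0102) also passed. Parp1 averaged 0.30 in HF-Q and 0.051 in HF mice numbered 7 to 12, and -0.15 in HF-Q and -0.28 in HF mice numbered 1 to 6. An r of 0.5 or more with the number was found for 17.2% of all genes. The cell cycle score (0.80) and the smooth muscle score (0.85) moved with it too, and the smooth muscle score of mice numbered 1 to 6 did not overlap that of mice numbered 7 to 12.

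The sources used here do not say what the numbers stand for, and their part in the shared movement was not tested beyond the following values. Apex1 with Parp1 had r = 0.77 in the 12 mice numbered 1 to 6 and 0.54 in the 11 mice numbered 7 to 12. Apex1 with the cell cycle score had 0.96 and 0.57 there, and Parp1 with that score 0.77 and 0.30. Mutyh with Apex1 had 0.57 and 0.40, Xrcc1 with Parp1 0.41 and 0.042, and Xrcc1 with Lig3 0.56 and 0.63. Both diets hold the numbers about equally. A limma fit with the number as a term was chosen after seeing the data. In it the log2 fold change was 0.19 for Parp1, 0.13 for Polb and 0.11 for Apex1, with adjusted p = 0.742 for each. The unadjusted p of Parp1 in that limma fit was 0.0271, and 1419 genes in all had one under 0.05.

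**Figure D4:**
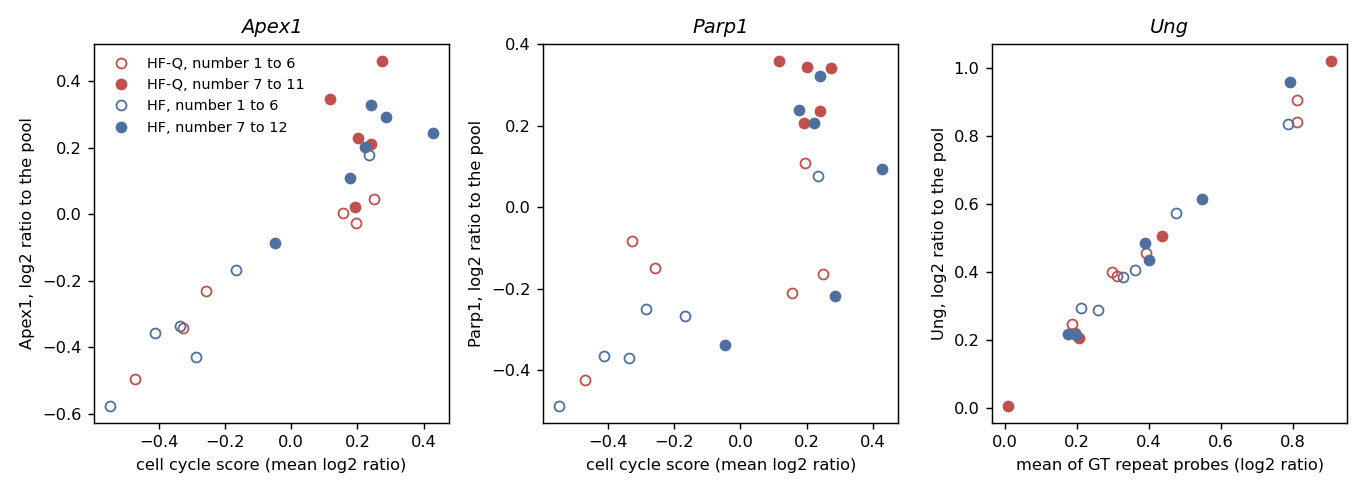
Log2 ratio to the pool of Apex1 (left) and Parp1 (middle) against the cell cycle score of each mouse, and of the Ung probe against the mean of 50 GT repeat probes (right); red HF-Q, blue HF, open circles mice numbered 1 to 6 and filled circles those numbered 7 or higher. Apex1 follows the score at r = 0.93 over all mice, 0.94 in the 9 mice below 0 and 0.29 in the 14 mice above 0, which span a narrower range of the score, and the Ung probe lies along a line with the repeat probes at r = 0.99.

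Among the other pathway genes, the long-patch branch held most of the high correlations with the cell cycle score, whose list holds none of them. Of its 16 genes, 12 had an r of 0.5 or more (median 0.81), against 4 of the 10 genes (median 0.42). The share over all genes was 18.2% (median -0.051). Examples were Pole (0.95), Pold1 (0.95), Fen1 (0.94) and Lig1 (0.93), which also serve DNA replication, while Pold4, a small polymerase subunit, was opposite at -0.80. Dut, which keeps uracil out of DNA, was at 0.95 and the glycosylase Neil3 at 0.89. This is a description of these lists, since the points share the same mice and arrays.

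The named genes whose log2 ratios were most like each member over the 23 mice were ranked by Pearson r among 15148 others. For Apex1 they were Ifitm2, Hpd and Impdh2, the enzyme of guanine nucleotide synthesis (all r = 0.97), and for Parp1 Cdca4, Exosc1, a subunit of the RNA exosome, and Wdr3 (all r = 0.92). Polb was nearest to Pdcd2l (0.86), Stard10 (0.84) and Grpel1 (0.84), Xrcc1 to Zfp760 (0.82), the lipogenic enzyme Acaca (0.81) and Prkdc, the kinase of end joining (0.80), and Lig3 to Nacc2 (0.85), Lrrc45 (0.84) and Nisch (0.83). Mutyh was nearest to Spata7 (0.86), Gm15455 (0.83) and Tex9 (0.82), Nthl1 to Carnmt1 (0.78), P2rx5 (0.73) and Acss2 (0.70), and Neil1 to Gm11240 (0.90), Ccin (0.89) and Acad10 (0.88). The top 3 for Ogg1 lay between 0.74 and 0.81, Nxt2 and Emd among them.

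Promoters of Apex1 and Parp1 are shown because these genes moved together. They are the 250 bases before the start of each gene from RefSeq on build GRCm38.p6, with Sp1 motifs (GGGCGG or its complement CCGCCC) and CCAAT boxes in capitals. The Apex1 stretch is chr14:50924699-50924948 and the Parp1 stretch is chr1:180568641-180568890, both on the plus strand.
Apex1 promoter: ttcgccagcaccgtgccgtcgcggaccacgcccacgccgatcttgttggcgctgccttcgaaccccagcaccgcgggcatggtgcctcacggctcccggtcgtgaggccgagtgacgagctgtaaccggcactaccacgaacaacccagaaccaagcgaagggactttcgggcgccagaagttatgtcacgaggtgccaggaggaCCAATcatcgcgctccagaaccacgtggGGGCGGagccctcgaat
Parp1 promoter: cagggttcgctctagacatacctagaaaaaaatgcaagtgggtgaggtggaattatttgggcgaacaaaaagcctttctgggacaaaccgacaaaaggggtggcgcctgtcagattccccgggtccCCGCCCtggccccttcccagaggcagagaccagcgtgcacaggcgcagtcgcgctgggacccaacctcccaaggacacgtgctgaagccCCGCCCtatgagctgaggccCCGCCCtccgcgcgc

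Apex1 holds 1 Sp1 motif and 1 CCAAT box and Parp1 holds 3 Sp1 motifs. In all, 9 of the 10 genes matched the promoter table, with 10 promoters, since Mutyh had 2. Both strands were searched for 5 motifs. The Sp1 motif was in 6 of these 10 promoters, beside 32.7% of 32851 promoters of the same length, and CCAAT in 6 of 10, beside 33.8%. The E2F motif TTTNNCGC was found in Nthl1 alone, beside 4.28% of all promoters. The NRF1 motif CGCATGCG and the CRE motif TGACGTCA, each in 1.55% of all promoters, were in none of the 10. A match or its lack describes these letters in this window only.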

How the data were processed

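RNA from the small intestine of 23 mice was measured on 2-colour arrays (200 ng of RNA per mouse, per the labels' protocols), with Cy5 for the mouse and Cy3 for an equimolar pool of all mice and no dye swap. Agilent Feature Extraction 10.7.3.1 made the spot values, per the submitters' processing notes, and per the file headers the deposited spot and background values are intensity on a linear scale, not normalized between arrays. The deposited log10 ratio of that software, which its headers give as dye-normalized after background subtraction, and the authors' deposited table of processed log2 values, whose normalization the sources used here do not give, served as alternatives. The scanner software's flags are other deposited columns, read as 0 or 1 per the file headers.

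Background was corrected by normexp (offset 50) and log2(Cy5/Cy3) normalized within arrays by loess in limma 3.58.1 (R 4.3.3), leaving 3671 control spots out of the curve. Outlier spots (260 to 355 per array) were dropped, and for correlations the mean of the gene replaced 586 missing values, none of them in a member. The filter kept probes well above background in Cy5 on 50% or more of the arrays of 1 or both diets (29249 of 55681 probes, 52.5%), and the brightest probe stood for a gene. Genes were named through RefSeq of GRCm38.p6. The number of arrays limits the precision.

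The diets were compared by limma's two-sided moderated test on all 23 arrays without covariates, adjusted over 21475 genes by Benjamini-Hochberg. Correlations had two-sided permutation tests with 100000 resamples, adjusted over 45 pairs, 150 list relations or the 10 genes against the number in the labels; the relation of the Ung probe to the repeat probes is 1 unadjusted test. The limma comparison of the diets and the permutation test of correlations were each tested on simulated data. The members, the gene lists and the named genes (all members, all of a list of other pathway genes, and the 3 genes nearest to each member) were chosen with earlier results of these data known, and patterns seen before are no independent support. Alternatives changed the background correction, normalization, source of values, filter, probe, slide, array weights and mice.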

Additional observations from a re-analysis of the deposited data

How the results depend on the processing

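In limma no gene passed the adjusted threshold under any alternative run, among them the replicate block; most tested 21475 genes, while 20695 were tested in the authors' table, 34740 with no filter and 18383 with the filter on all 23 arrays, with 9 of the 10 genes, since Nthl1 dropped out. Acinar and smooth muscle scores as terms gave 2670 genes an unadjusted p under 0.05, against 972 without them, and 3 of the 10 genes against 0. Other limma fits also gave members an unadjusted p under 0.05. These were 3 within slide 1 (1102 genes in all) and 2 with Cy5 alone (948). There was 1 in the authors' table (813), within slide 2 (919), with the replicate block (947) and with the labels number (1419). There was 1 each without HF replicate 3 (952) or HF-Q replicate 2 (1330). Differences changed sign in some settings, including the larger ones of Parp1 (0.16 over all mice) and Polb (0.14). Within slide 2 they were -0.097 for Nthl1, -0.11 for Mutyh, 0.33 for Ung and -0.053 for Xrcc1, within slide 3 -0.012 for Ogg1, -0.0093 for Nthl1, 0.081 for Ung, -0.038 for Polb, 0.020 for Lig3 and -0.0048 for Parp1, and within slide 1 -0.086 for Neil1 and 0.049 for Lig3. Median centring without loess put the median of all genes at 0.049, and there Ung was at 0.078 and Lig3 at 0.0034. Ung was at 0.0031 after quantile normalization, 0.0078 in the authors' table, 0.0065 with the slide as a block and 0.0093 with the replicate block, though same-numbered mice of the diets, 11 pairs, correlated at only -0.35 to 0.39 (median 0.050), with 1 of 11 best matched to its own number. Neil1 was at -0.0093 with Cy5 alone and -0.026 with the acinar and smooth muscle scores as terms, which put Parp1 at 0.27, Apex1 at 0.15 and Mutyh at 0.067. Lig3 was at 0.0037 by its dimmer probe, chosen after seeing the data. Leaving out each mouse in turn gave -0.015 to 0.054 for Nthl1, -0.0038 to 0.043 for Neil1, -0.014 to 0.044 for Mutyh, -0.058 to 0.043 for Ung, 0.022 to 0.12 for Apex1, -0.071 to -0.018 for Lig3 and 0.0028 to 0.037 for Xrcc1. It gave 0.056 to 0.092 for Ogg1, 0.097 to 0.17 for Polb and 0.13 to 0.21 for Parp1. The 9 pairs with an r of 0.5 or more were 7 to 11 without each mouse in turn and 6 in the authors' table. They were 21 on slide 3 alone, 25 with median centring and 5 with the mean of all probes. After acinar and smooth muscle scores they were 5, after the cell cycle score 4, and with the dimmer probes of Lig3, Neil1 and Mutyh 4. After seeing the data, mice numbered 1 to 6 and 7 to 12 were also taken apart, with 8 and 7 such pairs, and 7 after a line on the number. No share over all gene pairs stands beside these counts, so they cannot be read as particular to the 10 genes. The cause of these shifts was not tested. Dim probes such as that of Nthl1 limit the signal over background.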
